A study of Homo sapiens with 6 samples.

Results

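Genes that tumour necrosis factor switches on, together with the adaptors and survival proteins that sit under its receptors, were compared between WI-38 fibroblasts that overexpressed RASv12 and growing WI-38 fibroblasts. The 10 genes listed were TNFAIP1, TNFAIP2, TNFAIP6, TNFAIP8, BIRC2, BIRC3, TRAF1, TRAF2, TRAF3 and CFLAR, and every probe set annotated to one of them was taken. The annotation paired 23 probe sets with 8 of the 10 genes, out of 11963 genes on the array. BIRC3 and TRAF2 were not analysed here, because no probe set was paired with either name. Gene expression was read on 6 Affymetrix arrays. WI-38 is a normal human diploid lung fibroblast strain, and all 6 samples were kept at 3% oxygen. The first group was 3 samples of WI-38 cells labelled as overexpressing RASv12, an always-active RAS, and as senescent, a state of lasting growth arrest. The second group was 3 samples of wild-type WI-38 cells labelled as growing. The RASv12 gene was brought in by retroviral transfer. The labels give neither the RAS gene used nor an empty vector in the controls, so any effect of infection and of RASv12 cannot be told apart. Every RASv12 sample was labelled senescent and every control growing, so RASv12 and growth arrest cannot be told apart either. The labels also give Cy3 for every RASv12 sample and Cy5 for every control, although this array is read in a single colour. Whether the dyes truly differed was not tested, and any difference of dye and that of group cannot be told apart here. No label says that the samples of a group were separate cultures, so the p-values rest on sample-to-sample spread that could be technical.

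Tumour necrosis factor binds a receptor that recruits TRAF adaptors and the cellular inhibitors of apoptosis, BIRC2 and BIRC3, which are ubiquitin ligases. The complex they form turns on NF-kB, a transcription factor family that induces inflammatory genes. A second complex can instead activate caspase-8 and kill the cell, and CFLAR, a caspase-8 relative that lacks protease activity, holds this back. Several members are themselves NF-kB targets, so the pathway feeds back on itself. RAS-induced senescence of fibroblasts is known for an inflammatory secretory state that depends on NF-kB.

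Of the 8 measured genes, 5 rose in RASv12 cells (TNFAIP6, TNFAIP2, TRAF1, CFLAR and TRAF3), 1 fell (TNFAIP8) and 2 did not pass (TNFAIP1 and BIRC2). In these bulk samples fewer cells that make a transcript and less of it per cell cannot be told apart. The test was limma's moderated test on quantile-normalized log2(intensity + 16), read on the brightest probe set of each gene, with Benjamini-Hochberg adjustment over all 11963 genes and a threshold of 0.05. By the same test 29.5% of all genes were called, 14.0% up and 15.5% down. The median log2 change of the 8 genes was 0.49, against 0.020 over all genes. The groups did not overlap in deposited intensity for 7 of the 8 genes, against 41.7% of all genes. With TRAF1, whose level in control cells is only a bound, at that bound the median was 0.42. Over probe sets, 9 of 23 rose and 2 fell, with 24.3% of all probe sets called, 11.3% up and 13.0% down, and 15 of 23 did not overlap between the groups, against 38.1% of all probe sets.

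Promoter sequence is shown for the 4 rising genes whose upstream bases held a match to a searched motif, and for TNFAIP1. Matched windows of TNFAIP8, the member that fell, and of another CFLAR start are not printed. The lines shown therefore allow no comparison of matches with direction of change. Each line gives the 250 bases before an annotated start, from RefSeq on GRCh38.p14, 5′ to 3′ on the gene's strand. Capitals mark the matches. They are the NF-kB consensus in TNFAIP1, TRAF3 and CFLAR, the AP-1 motif TGANTCA in TNFAIP6 and the C/EBP motif TTGCNNAA in TNFAIP2. AP-1 is the FOS and JUN family of factors, and C/EBP factors are partners of NF-kB in inflammatory genes.
TNFAIP6, chr2:151357342-151357591, plus strand: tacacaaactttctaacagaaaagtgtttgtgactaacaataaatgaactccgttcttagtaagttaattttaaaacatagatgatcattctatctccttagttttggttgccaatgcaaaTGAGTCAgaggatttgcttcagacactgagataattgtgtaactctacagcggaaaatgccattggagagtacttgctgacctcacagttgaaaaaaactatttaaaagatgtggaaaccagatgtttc
TNFAIP2, chr14:103123211-103123460, plus strand: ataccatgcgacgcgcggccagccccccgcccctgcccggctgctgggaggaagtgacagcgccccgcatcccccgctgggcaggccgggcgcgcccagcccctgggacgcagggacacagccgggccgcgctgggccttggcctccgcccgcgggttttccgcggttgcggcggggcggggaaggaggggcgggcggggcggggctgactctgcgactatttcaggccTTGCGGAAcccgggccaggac
TNFAIP1, chr17:28335511-28335760, plus strand: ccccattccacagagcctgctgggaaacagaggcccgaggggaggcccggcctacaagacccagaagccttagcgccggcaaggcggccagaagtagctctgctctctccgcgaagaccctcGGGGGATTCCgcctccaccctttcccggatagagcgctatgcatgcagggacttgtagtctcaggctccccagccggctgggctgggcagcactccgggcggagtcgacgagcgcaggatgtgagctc
TRAF3, chr14:102777199-102777448, plus strand: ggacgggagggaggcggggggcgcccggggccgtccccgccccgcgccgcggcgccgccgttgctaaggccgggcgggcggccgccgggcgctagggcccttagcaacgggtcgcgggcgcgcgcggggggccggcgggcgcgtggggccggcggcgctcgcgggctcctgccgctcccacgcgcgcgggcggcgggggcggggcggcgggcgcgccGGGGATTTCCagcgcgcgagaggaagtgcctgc
CFLAR, chr2:201118466-201118715, plus strand: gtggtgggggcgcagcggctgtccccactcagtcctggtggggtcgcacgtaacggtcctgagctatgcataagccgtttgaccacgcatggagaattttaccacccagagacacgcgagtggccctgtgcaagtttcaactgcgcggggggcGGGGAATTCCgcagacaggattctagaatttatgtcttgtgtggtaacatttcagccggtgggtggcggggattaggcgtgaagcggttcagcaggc

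The table of starts held 16 windows for the 8 genes, and all 3 motifs were searched on both strands in all of them. The 10-letter NF-kB consensus was found for 3 of the 8 genes, in the 250 bases before a start, against 11.8% of 27305 genes searched over the same length. It began 97 bases before the CFLAR start, 33 before that of TRAF3 and 128 before that of TNFAIP1. AP-1 was matched for 2 of the 8 genes, TNFAIP6 and another CFLAR start, against 8.06% of genes. C/EBP was matched for TNFAIP2 and for a pair of TNFAIP8 starts, against 11.0% of genes. CFLAR had 4 windows and TNFAIP8 had 3, which gives them more chances of a match than a gene with 1. TRAF1 and BIRC2 also had more than 1. Counted by window, the NF-kB consensus was found in 3 of 16, against 9.96% of all 35116 windows. AP-1 was found in 2 of 16, against 6.57%, and C/EBP in 3 of 16, against 9.05%. No window held more than 1 match, so no matches overlapped. No match to any of the 3 motifs lay in the windows of TRAF1 or BIRC2. A match is a run of letters and not a measured binding site.

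TNFAIP6 encodes TSG-6, a secreted protein that binds hyaluronan and helps to crosslink it in inflamed matrix. Its brightest probe set, 206026_s_at, read 134, 151 and 115 in RASv12 replicates 1 to 3, against 42.0, 27.5 and 30.5 in control replicates 1 to 3. The lowest RASv12 array was well above the highest control array. Mean intensity was 133 ± 17.8 in RASv12 cells and 33.4 ± 7.63 in control cells (SD, n = 3 each). The log2 change was 1.61 ± 0.14 (SE), with limma adjusted p = 2.5e-04, which placed the gene at rank 182 among all genes ordered by log2 change. The other probe set, 206025_s_at, read 127, 131 and 126 in RASv12 replicates and 30.3, 33.5 and 29.0 in control replicates. It rose by 1.65 ± 0.091, so both probe sets gave nearly the same size of change. With a pseudocount of 64 in place of 16 the change was 1.03, and control replicate 2 lay under the level of the brightest bacterial control probe set, 27.98. Readings at or under that level are described as within the bacterial controls.

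TNFAIP2, also called M-Sec, is a cytosolic protein that drives the formation of thin membrane bridges between cells. Probe set 202510_s_at read 145, 125 and 172 in RASv12 replicates 1 to 3, against 73.0, 72.7 and 67.9 in control replicates. The groups did not overlap, and the RASv12 arrays were more spread out than the controls, at 147 ± 23.7 against 71.2 ± 2.87 (SD, n = 3 each). The log2 change was 0.95 ± 0.12 with limma adjusted p = 0.0014. The second probe set, 202509_s_at, lay within the bacterial controls on all 6 arrays, at 12.3 to 26.9 in RASv12 cells and 8.77 to 19.2 in control cells, so no fold is given for it.

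TNFAIP1 is an adaptor of the CUL3 ubiquitin ligase that targets the small GTPase RHOA. Its probe sets differed in their call. The brightest, 201207_at, read 279.6, 319 and 318 in RASv12 replicates 1 to 3 and 238, 209.8 and 263 in control replicates. These groups did not overlap, with RASv12 cells higher, but the log2 change of 0.33 ± 0.12 did not pass over all genes (adjusted p = 0.093, 95% confidence interval 0.035 to 0.62). The dimmer probe set, 201208_s_at, read 87.7, 97.1 and 107 in RASv12 replicates and 46.1, 56.1 and 51.5 in control replicates. It rose by 0.81 ± 0.10 with adjusted p = 0.0019 over all probe sets. The mean of both was called at 0.57.

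TNFAIP8 is a lipid-binding protein that protects cells from apoptosis, and it was the member that fell. Probe set 208296_x_at read 53.4, 57.1 and 50.2 in RASv12 replicates 1 to 3, against 85.4, 87.0 and 86.5 in control replicates. All RASv12 arrays were below all control arrays, with an SD of 3.48 in RASv12 cells and 0.807 in control cells (n = 3 each). The log2 change was -0.50 ± 0.10 with limma adjusted p = 0.011. Probe set 210260_s_at read 40.7, 43.9 and 34.7 in RASv12 replicates and 85.9, 68.5 and 87.9 in control replicates. It changed by -0.75 ± 0.15, so both probe sets fell. The call on the brightest ended when arrays were scaled to the hybridization controls, at -0.28 with adjusted p = 0.062, under which the median of all genes was 0.197. Probe set 210260_s_at kept its call under that scaling, at -0.53 with limma adjusted p = 0.016 over all probe sets.

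**Figure D1:**
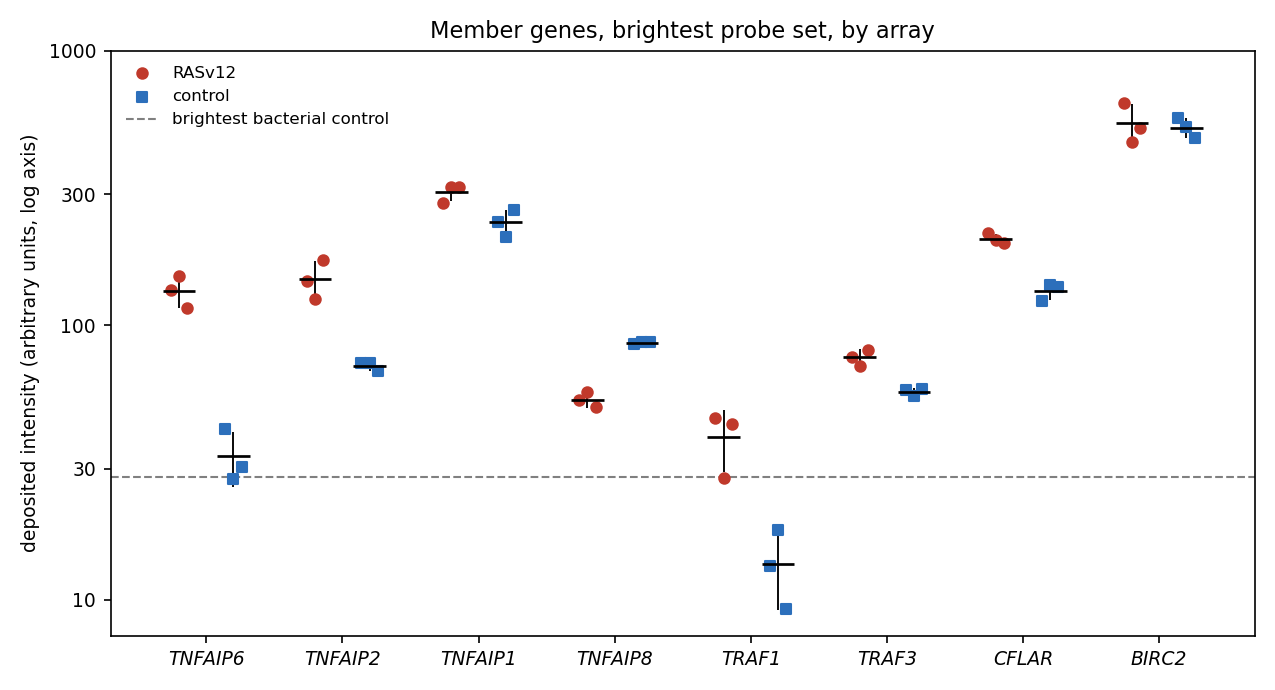
Deposited intensity of the brightest probe set of each measured gene on each array, on a log axis, with RASv12 arrays as red circles left of control arrays as blue squares. Horizontal bars are means and vertical lines 1 SD (n = 3 each), and the dashed line is the brightest bacterial control at 27.98. TNFAIP8 is the gene with RASv12 arrays below the controls, and BIRC2 is the gene whose groups overlap.

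The TRAF proteins link receptors of the TNF family to ubiquitin ligases and kinases. TRAF1, an NF-kB-induced member that lacks the RING domain of the others, had a single probe set, 205599_at. It read 46.1, 27.7 and 43.6 in RASv12 replicates 1 to 3, against 13.3, 18.0 and 9.26 in control replicates. The groups did not overlap, but all 3 controls and RASv12 replicate 2 lay within the bacterial controls. With the 3 control arrays at the level of the brightest bacterial control, RASv12 cells had at least 1.36-fold more TRAF1, with limma adjusted p = 0.011. Its fitted log2 change of 0.90 depends on the pseudocount and was 1.50 with 1 and 0.41 with 64. With adjustment over all probe sets, the call was kept in 4 of 6 fits without 1 array (adjusted p up to 0.059).

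TRAF3 restrains the noncanonical NF-kB kinase and also links innate sensors to interferon induction. Its brightest probe set, 221571_at, read 76.4, 70.9 and 81.6 in RASv12 replicates 1 to 3, against 58.0, 55.4 and 58.5 in control replicates. The groups did not overlap, and the change was small at 0.40 ± 0.090 (SE, adjusted p = 0.015). The call ended without control replicate 2 (0.38, adjusted p = 0.053) and with median centring (0.36, adjusted p = 0.056). With adjustment over all probe sets, 221571_at kept its call in 4 of 6 fits without 1 array (limma adjusted p up to 0.059). The other probe set, 208315_x_at, read 37.9, 46.2 and 93.1 in RASv12 replicates and 35.7, 24.6 and 27.8 in control replicates. RASv12 replicate 3 stood far above the other RASv12 arrays, and the change of 0.71 ± 0.24 did not pass (adjusted p = 0.074).

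CFLAR encodes c-FLIP, whose long and short forms can both block caspase-8 at death receptors. It had 11 probe sets, of which 3 rose and 8 did not pass. The 3 that rose changed by 0.52 to 0.68 on the log2 scale. The brightest, 209939_x_at, read 216, 204 and 199 in RASv12 replicates 1 to 3, against 123, 140.3 and 138 in control replicates. Its groups did not overlap, and it rose by 0.59 ± 0.095 with limma adjusted p = 0.0037 over all genes.

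The next brightest CFLAR probe set, 210563_x_at, read 168, 157 and 170.0 in RASv12 replicates, against 101, 125 and 114 in control replicates, and rose by 0.52 ± 0.10. Probe set 208485_x_at read 62.5, 54.1 and 63.8 in RASv12 replicates and 29.5, 26.7 and 45.7 in control replicates, a rise of 0.68 ± 0.15. That call ended without RASv12 replicate 1 or 3 or control replicate 1 or 2, at adjusted p from 0.053 to 0.065. In contrast, 211316_x_at read 77.1, 64.7 and 84.6 in RASv12 replicates and 80.5, 79.9 and 74.0 in control replicates. Those groups overlapped, and the change was 0.022 with a 95% confidence interval of -0.23 to 0.27. Its sign turned on the values as deposited (-0.047) and with median centring (-0.021), and that of 210564_x_at, which also overlapped, turned without RASv12 replicate 2 (-0.10) or control replicate 3 (-0.093). Of the 8 CFLAR probe sets that did not pass, 214618_at and 217654_at lay within the bacterial controls on all 6 arrays. The mean over all 11, those included, was called at 0.33 (adjusted p = 0.025).

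The suffix _x_at, which 8 of the 11 CFLAR probe sets carry, marks probes that can also match other transcripts. Without such probe sets CFLAR was read on 211317_s_at, at 31.9, 24.3 and 36.9 in RASv12 replicates and 16.7, 25.6 and 19.6 in control replicates. It overlapped between the groups, lay within the bacterial controls in all control samples, and did not pass (at least 1.09-fold higher in RASv12 cells, fitted log2 change 0.37, adjusted p = 0.12). Which CFLAR splice form each probe set reads was not tested.

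BIRC2 encodes cIAP1, the ubiquitin ligase that keeps receptor complexes in their survival mode. Its single probe set, 202076_at, read 648, 467 and 524 in RASv12 replicates 1 to 3, against 569.7, 525 and 480.1 in control replicates. The groups overlapped, and the means were 546 ± 92.4 in RASv12 cells and 525 ± 44.8 in control cells (SD, n = 3 each). The log2 change was 0.031 ± 0.14 with adjusted p = 0.90, and its 95% confidence interval ran from -0.29 to 0.35. The difference took the opposite sign without RASv12 replicate 1 (-0.072) or control replicate 3 (-0.031).

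**Figure D2:**
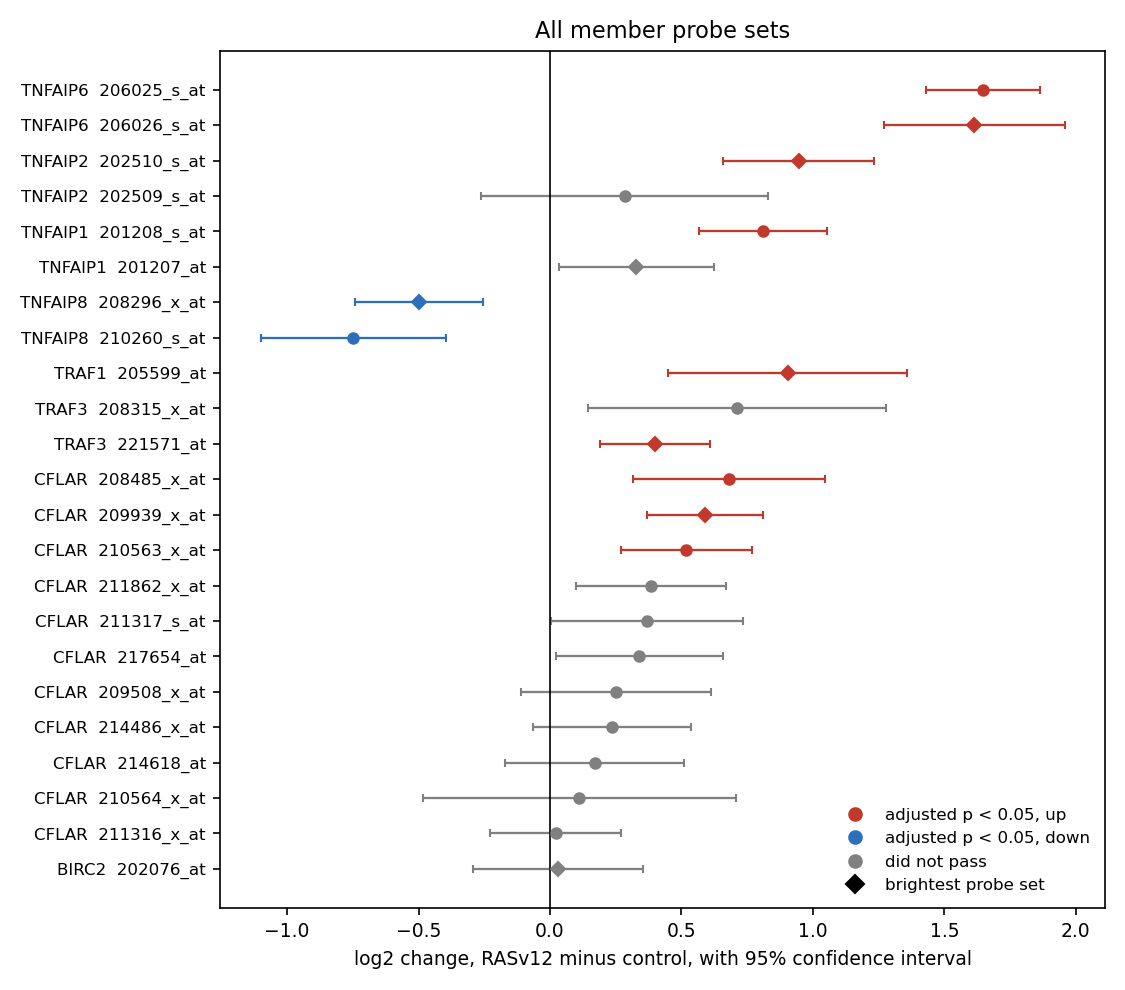
Log2 change of each of the 23 probe sets, RASv12 minus control, with its 95% confidence interval. Colour shows the call with adjustment over all probe sets, and diamonds mark the brightest probe set of each gene. Both TNFAIP6 probe sets lie above 1.6 and both TNFAIP8 probe sets below 0, while the 11 CFLAR probe sets spread from 0.022 to 0.68, with 214618_at and 217654_at within the bacterial controls.

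Groups of related genes were read from the same fit, by which 14.0% of all genes were up and 15.5% down. The first holds receptors and the signalling complexes under them, with 5 of 21 measured genes up, 2 down and 14 not passed. With 33.3% called, this group lay close to the 29.5% of all genes, at a median log2 change of 0.21 against 0.020. The NF-kB feedback inhibitor TNFAIP3 (A20), a ubiquitin-editing enzyme, rose by 2.77 ± 0.13. TNIP1, the adaptor that brings TNFAIP3 to ubiquitin chains, averaged 439 ± 16.3 in RASv12 cells and 113 ± 15.9 in control cells (SD, n = 3 each), a rise of 1.83 ± 0.12 with adjusted p = 5.9e-05. TNFRSF1B, the second TNF receptor, averaged 67.6 ± 11.5 in RASv12 cells and 27.5 ± 3.79 in control cells and rose by 0.98 ± 0.13. TNFRSF1A, the main TNF receptor, was at -0.12 with adjusted p = 0.78, a gene outside the naming rule that was picked after its value was seen. IKBKB, the kinase that marks IkB for destruction, averaged 37.9 ± 7.78 in RASv12 cells and 101.6 ± 5.87 in control cells and changed by -1.10 ± 0.17 (adjusted p = 0.0030), though the mean of its 3 probe sets gave -0.50 (adjusted p = 0.033). The count of rises dropped to 3 without RASv12 replicate 3 or control replicate 1 or 2, and the count of falls to 1 without any 1 array other than RASv12 replicate 3.

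Among the other TRAF and IAP proteins 1 of 7 measured genes was up, 3 were down and 3 did not pass. These are shares of 14.3% up, against 14.0% of all genes, and 42.9% down, against 15.5%. The median was 0.11, or 0.020 with genes that were within the bacterial controls throughout 1 group at their bound. BIRC5, or survivin, is the IAP that works in mitosis, and it averaged 11.8 ± 1.22 in RASv12 cells and 382 ± 26.0 in control cells (SD, n = 3 each). RASv12 cells were thus at least 13.6-fold lower in it (adjusted p = 3.8e-06). TRAF5, a TRAF2 relative, was at least 1.96-fold lower there. NAIP, which senses bacterial proteins, was called down at intensities of 0.945 in RASv12 cells and 13.9 in control cells, both within the bacterial controls, so no fold is given. TRAF4 averaged 90.9 ± 12.9 in RASv12 cells and 60.2 ± 6.32 in control cells and rose by 0.54 ± 0.13, a call that ended without control replicate 1 or 3 (adjusted p = 0.056 and 0.062). TRAF6, the adaptor of interleukin 1 and Toll-like receptors, was at 0.11 with adjusted p = 0.55. XIAP, a direct caspase inhibitor, averaged 27.1 ± 2.43 in RASv12 cells and 13.4 ± 7.05 in control cells and did not pass (adjusted p = 0.071), with 5 of the 6 arrays within the bacterial controls.

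In the death receptor and caspase group 5 of 11 measured genes were up, 2 down and 4 not passed, at a median of 0.40. As shares, 45.5% were up, against 14.0% of all genes, and 18.2% down, against 15.5%. The death receptor TNFRSF10B averaged 430.3 ± 42.7 in RASv12 cells and 225 ± 4.50 in control cells (SD, n = 3 each) and rose by 0.88 ± 0.10. BID, which carries the caspase-8 signal to mitochondria, rose by 0.61 ± 0.095, and HTRA2, a mitochondrial protease that antagonises IAPs, by 0.78 ± 0.14. CASP8 itself averaged 75.8 ± 1.17 in RASv12 cells and 53.9 ± 5.29 in control cells and rose by 0.46 ± 0.097 (adjusted p = 0.012). FADD, the adaptor that recruits caspase-8, rose by 0.40 ± 0.11 with adjusted p = 0.033, and lost its call without RASv12 replicate 1 or 2 or any 1 control. CASP6, an executioner caspase, averaged 35.2 ± 9.74 in RASv12 cells and 124 ± 18.4 in control cells and changed by -1.45 ± 0.22. Its RASv12 replicate 3, at 24.0, lay within the bacterial controls. The CASP6 change was -1.82 with a pseudocount of 1 and -0.91 with 64. The other fall was the death receptor FAS, at -0.42 ± 0.11 (adjusted p = 0.023). CASP6 kept its call whichever array was left out. The count of falls was 1 without RASv12 replicate 2 or 3 or any 1 control, and FAS was the call lost.

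Transcripts known to be induced by NF-kB had 15 of 19 measured genes up, 1 down and 3 not passed, at a median of 1.24. The share up was 78.9%, against 14.0% of all genes, and the share down 5.26%, against 15.5%. The 4 with the largest moderated t were IL6, CXCL2, CXCL8 and ICAM1, which encode an interleukin, a pair of neutrophil chemokines and an adhesion molecule. IL6 rose by 5.65, CXCL8 by 5.99 and ICAM1 by 3.40 on the log2 scale, and CXCL2, within the bacterial controls in all 3 control samples, was at least 45.0-fold higher. TNFAIP6, the member with the largest log2 change (1.61), lay above the median of this group and below IL6, CXCL8 and ICAM1. PTX3, a secreted pattern receptor that partners TSG-6 in the hyaluronan matrix, was the 1 that fell, at 135 ± 12.3 in RASv12 cells and 417 ± 58.2 in control cells (SD, n = 3 each). Its log2 change was -1.52 ± 0.13 with adjusted p = 2.2e-04.

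Relatives and partners of the TNFAIP proteins split, with 4 of 12 measured genes up, 4 down and 4 not passed, at a median of -0.14. Each direction held 33.3% of them, against 14.0% of all genes up and 15.5% down. HAS2, a hyaluronan synthase, averaged 266 ± 32.6 in RASv12 cells and 21.2 ± 7.88 in control cells (SD, n = 3 each), and rose by 2.92 ± 0.16 (adjusted p = 2.6e-05), though 2 of its 3 controls lay within the bacterial controls. RALA, a small GTPase that works with TNFAIP2 in membrane bridges, averaged 660.0 ± 87.1 in RASv12 cells and 158 ± 8.35 in control cells and rose by 1.94 ± 0.11. KCTD13, a close relative of TNFAIP1, was higher by at least 2.61-fold, and RHOB, a small GTPase related to RHOA, rose by 1.03 ± 0.15. Besides PTX3, the falls were VCAN (-0.76), a hyaluronan-binding proteoglycan, CD44 (-0.50), the hyaluronan receptor, and EXOC3 (-1.49), an exocyst subunit. EXOC3 had an SD of 30.9 around a mean of 39.5 in RASv12 cells, where 2 of the 3 arrays lay within the bacterial controls. The count of falls was 2 without RASv12 replicate 2 or control replicate 1 or 3.

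**Figure D3:**
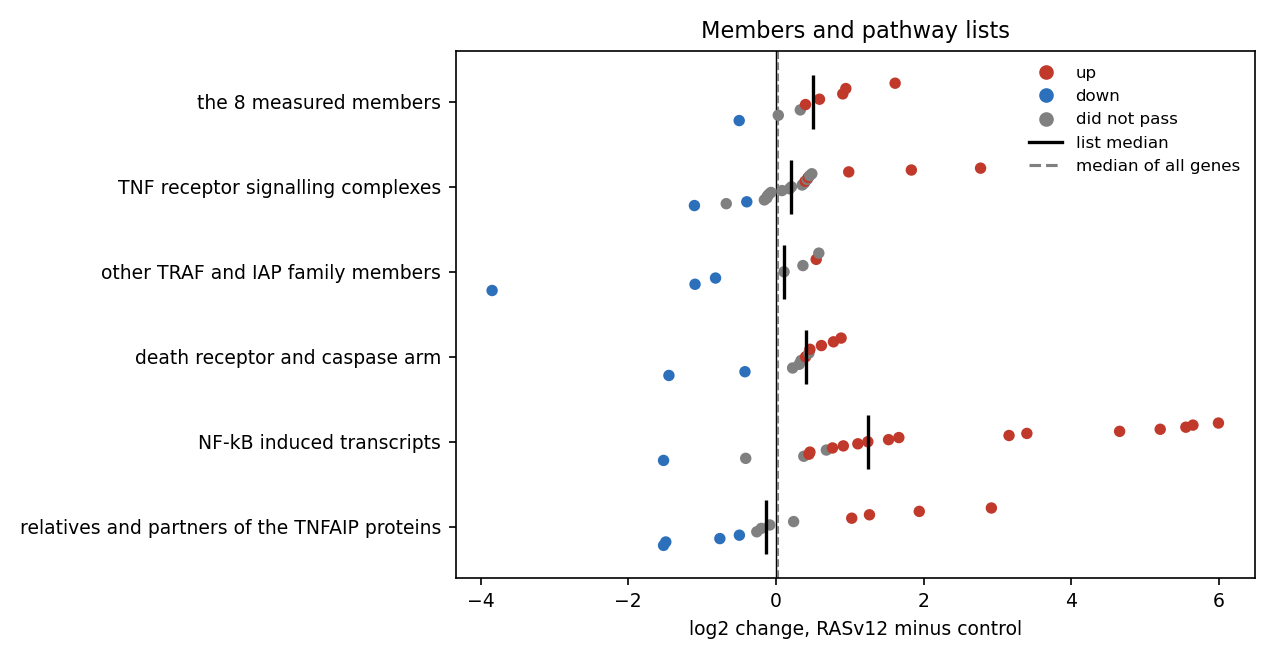
Log2 change, RASv12 minus control, of the 8 measured members and of the genes of each related group, 1 point a gene, coloured by its call. Black bars are group medians, which run from -0.14 to 1.24, and the dashed line is the median of all genes at 0.020.

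The genes most like each called member were found by the root-mean-square distance between log2 profiles over the 6 arrays, each centred on its own mean. TNFAIP6 was closest to ADAM19 (0.075) and IFIT1 (0.085), TNFAIP2 to ALG3 (0.065) and MRPL15 (0.069), and TRAF1 to LIN28A (0.10) and TNFRSF1B (0.13). CFLAR was closest to IFNGR2 (0.018) and DAD1 (0.036), TRAF3 to PHOX2A (0.015) and CLDN8 (0.026), and TNFAIP8 to PROS1 (0.035) and SOD1 (0.045). These distances describe 6 arrays in 2 groups and hold no test.

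Over the whole series, 48.6% to 54.1% of probe sets on each array lay above the brightest bacterial control. Arrays of a group correlated at 0.975 to 0.987, and arrays of different groups at 0.912 to 0.928. HRAS, a RAS family gene, was 853 ± 123 in RASv12 cells and 215 ± 23.0 in control cells (SD, n = 3 each), and whether its probe set reads the introduced gene was not tested. All 8 fibroblast markers lay above the bacterial controls on all 6 arrays, and 6 of them were lower in RASv12 cells, with a summed intensity of 10704 to 13017 against 20465 to 22769 in control cells. Of the markers of other cell types, 4 of 5 leukocyte, 2 of 4 endothelial and 4 of 4 epithelial genes lay within the bacterial controls on all 6 arrays. Summed leukocyte marker intensity was 29.1 to 65.9 in RASv12 cells and 31.3 to 55.9 in control cells, and summed epithelial marker intensity was 11.6 to 41.4 in RASv12 cells and 34.7 to 36.8 in control cells. Summed endothelial marker intensity was 39.3 to 89.1 in RASv12 cells and 92.6 to 121 in control cells, and TEK was the endothelial gene called, at -1.14. The part of these marker differences in the members' changes was not tested.

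**Figure D4:**
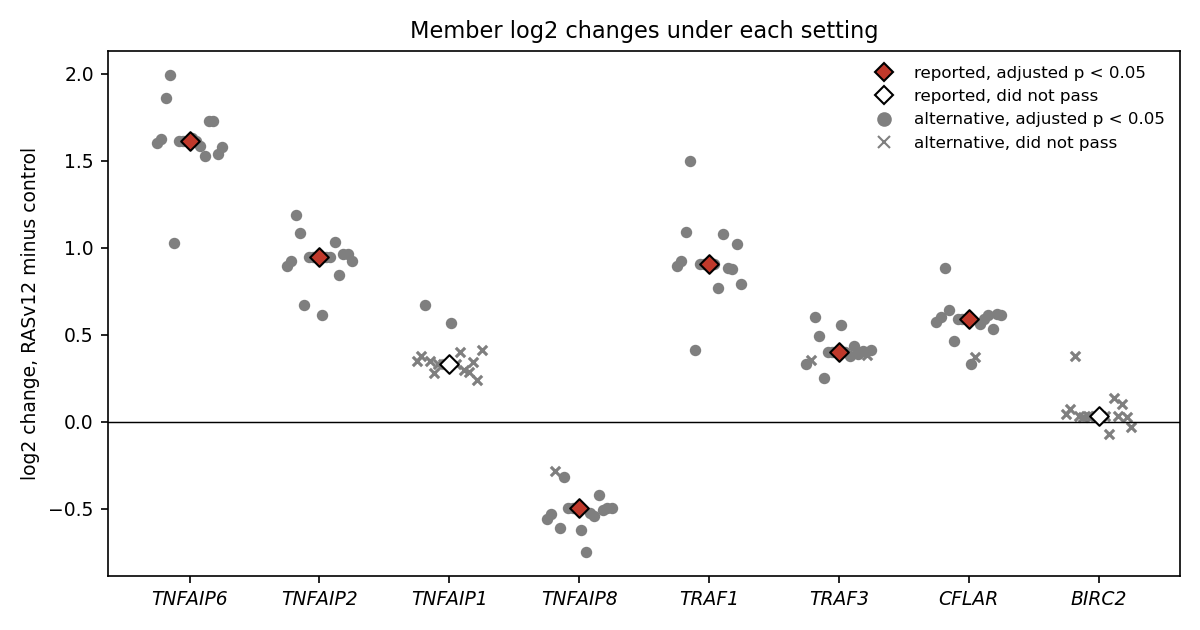
Log2 change of each measured member, RASv12 minus control, as reported (diamonds) and under each alternative setting (grey), with crosses for values that did not pass at an adjusted p of 0.05. TNFAIP6 spans 1.03 to 2.00 with every point passed, TNFAIP8 stays below 0 from -0.75 to -0.28, and BIRC2 passes under none of its 16 settings.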

How the data were processed

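Total RNA from 3 RASv12 and 3 control samples of WI-38 cells was amplified in 2 rounds and labelled with whole-transcript kits, per the labels' protocols. The authors deposited 1 table of linear signal intensity per probe set. MAS5 is named per the submitters' processing notes, without a version or a target level. The mean intensity after trimming 2% from each end was 100.0 on every array, so the deposited values had been scaled to a common level.

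From 22283 probe sets, 68 control probe sets were left out. The platform annotation paired 19065 probe sets with 1 symbol, which named them through RefSeq gene identifiers, while 1043 had several symbols, 2107 had no symbol, and neither kind was named. Intensities were taken as log2(value + 16), which understates changes of dim genes, and quantile-normalized. Groups were compared with limma 3.58.1 in R 4.3.3 and Benjamini-Hochberg adjustment, over 11963 genes (brightest probe set each) or over 22215 probe sets. Dim means at or under 27.98, the highest of 27 bacterial control probe sets on any array. Where all 3 samples of a group were dim, a change is "at least" a fold, from mean log2 deposited intensities with that group's values raised to that level. Dim values of the other group were left as deposited. The fit was tested on simulated data. The number of arrays limits precision.

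Members and gene lists were chosen with earlier results of these data known. The rule for naming took all members, up to 4 called genes of each list by moderated t, TNFAIP3, TRAF6, XIAP, BIRC5, CASP8, FADD and RIPK1 (not analysed here), and the 2 nearest profiles of each called member. Other named genes were picked after their values were seen. Array scale, pseudocount, dim filters, the choice of probe set, a replicate block and leaving out each array were varied. Whether replicate numbers pair the samples is not known. Deviations of same-numbered arrays from their group means correlated at -0.23, -0.028 and -0.070, which cannot settle it with 3 arrays in each group.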

Additional observations from a re-analysis of the deposited data

How the results depend on the processing

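Across 16 alternatives TNFAIP6 kept its direction and call (log2 changes from 1.03 to 2.00), as did TRAF1 under the 15 that tested it (fitted values from 0.41 to 1.50). TNFAIP2 did so at 0.67 to 1.19 where its bright probe set was read, and the mean with its probe set within the bacterial controls gave 0.61. With adjustment over all probe sets, the TRAF1 probe set kept its call under 10 of 13 alternatives (adjusted p up to 0.059). By the same adjustment the TRAF3 probe set 221571_at kept its call under 9 of 14 (limma adjusted p up to 0.066). Scaling to the hybridization controls, all 18 of which read lower in RASv12 samples (mean log2 difference -0.34), moved the median of all genes to 0.197 and the calls to 2827 genes up and 1053 down (72.9% up, against 47.3%), and 4375 probe sets up and 1675 down. It gave no member down on the brightest probe set, with TNFAIP8 at -0.28 and TNFAIP1 called at 0.67, though TNFAIP8 probe set 210260_s_at stayed called at -0.53. It also gave 10 receptor complex genes up and 1 down, 3 other TRAF and IAP genes up, 1 death receptor gene down and 2 TNFAIP relatives down. The mean of all probe sets called TNFAIP1 at 0.57 and gave 2 TRAF and IAP genes up, 1 death receptor gene down and 2 relatives down. CFLAR did not pass without _x_at probe sets (fitted 0.37, with all controls dim), and TRAF3 did not pass with median centring (0.36).

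Median centring also gave 1 receptor complex gene down, 2 TRAF and IAP genes up and 1 death receptor gene down. A pseudocount of 1 gave 3 receptor complex genes up and 1 down, 1 death receptor gene down and 2 relatives down. By construction a pseudocount of 64 shrank the changes of dim genes, leaving called values of -0.32 for TNFAIP8, 0.25 for TRAF3, 0.55 for TNFRSF1B, -0.68 for IKBKB, 0.36 for TRAF4, 0.29 for CASP8, -0.91 for CASP6 and 1.94 for HAS2. The values as deposited, a pseudocount of 64 and leaving out the dimmest 50% each gave 1 receptor complex gene down, and leaving out the dimmest 25% gave 2 TRAF and IAP genes up. With the replicate number as a block, though whether the numbers pair the samples is not known, 1224 genes were up and 1509 down. TRAF3 then did not pass at the same log2 change of 0.40 (adjusted p = 0.055). The block gave 3 receptor complex genes up and 1 down, 0 TRAF and IAP genes up and 1 death receptor gene down. No array correlated best with the same-numbered array of the other group. Leaving out 1 array at a time gave 1185 to 1640 genes up and 1418 to 1752 down, 4 to 5 members up and 1 down. It moved TRAF3 between 0.38 and 0.44 and BIRC2 between -0.072 and 0.13. It gave 3 to 4 receptor complex genes up and 1 to 3 down, 0 to 2 TRAF and IAP genes up, 1 to 2 death receptor genes down and 2 to 4 relatives down. Among CFLAR probe sets that did not pass, 211316_x_at took the opposite sign on the values as deposited (-0.047), with median centring (-0.021) and without RASv12 replicate 1 or 3 or control replicate 3 (-0.024 to -0.0086), its range without 1 array reaching 0.10. Probe set 210564_x_at did so without RASv12 replicate 2 (-0.10) or control replicate 3 (-0.093), with 0.27 at the top of its range. The cause of these differences was not tested. Dim genes are limited by signal over background, TRAF1 among the members.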
